A study of Mus musculus with 36 samples.

Results

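The late phase of X-linked gene silencing, from day 5 to day 7 of differentiation, was followed in 10 of the 36 ChrRNA-seq libraries of the series, namely those of the Halo-SMCHD1 and G137E lines taken at these days. Halo-SMCHD1 and G137E each have 2 libraries at day 5 and 3 at day 7, so that 6 libraries were compared with 4, with the line as a covariate. ChrRNA-seq sequences RNA bound to chromatin and thereby follows ongoing transcription, and each value is the fraction Xi/(Xi+Xa) of reads of a gene that come from the inactive X chromosome (Xi). A fraction of 0.5 means equal output of both alleles and 0 means no read from Xi.

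Both are lines of XX mouse embryonic stem cells (mESC) on a Cast x 129S background, in which the native Xist promoter of the 129S allele was replaced with a TetOn promoter, so that doxycycline (dox) turns on Xist RNA and 129S is always Xi. Halo-SMCHD1 carries an N-terminal Halo-tag on native SMCHD1, and only clone G2 was used. By the study, Halo-SMCHD1 and the mutant lines made from it also carry a transgene for eGFP-CIZ1, which marks Xi by binding Xist RNA. In the published reviews, the authors state that eGFP-CIZ1 exceeds the endogenous level of CIZ1. They hold that this has no significant impact on X inactivation. An effect of the transgene was not tested here, since both lines carry it. G137E was made from Halo-SMCHD1 by a substitution on both alleles in the GHKL ATPase domain of SMCHD1, a change found in patients with the developmental disorder BAMS or the muscular dystrophy FSHD2, and only clone H4 was used. Each line is thus 1 clone, and a property of the clone cannot be told apart from one of the genotype. All 10 libraries are from cells that were differentiated as a monolayer with dox at 1.0 µg/ml and without feeders, and the labels do not say whether replicates are separate cultures, while the methods of the study describe them as repeats of the experiment with the same clone, so p-values measure the spread between repeats of 1 clone per line. The X-linked tables hold neither Smchd1 nor markers of differentiation, so the labels could not be checked against them.

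X inactivation balances the dose of X-linked genes between XX and XY cells. Xist RNA coats the chromosome from which it is made and recruits silencing factors, and repression is reinforced by further layers. Among them is SMCHD1, a non-canonical SMC protein. By live imaging in the study, it loads onto Xi from the start of X inactivation and builds up gradually during differentiation. Some genes, called escape genes, keep a part of their Xi output in most cells. In bulk libraries, fewer cells with an active Xi allele and less Xi RNA in every cell cannot be told apart. The fraction sets Xi against the active X chromosome (Xa), and the level of neither allele is given. A lower fraction can thus also come from more Xa RNA, which was not tested.

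The fraction Xi/(Xi+Xa) fell between day 5 and day 7 in both lines. The median fraction over the 249 genes of the table was 0.0708 and 0.0607 in the Halo-SMCHD1 libraries at day 5 and 0.0198, 0.0372 and 0.0426 at day 7. In G137E it was 0.0584 and 0.0769 at day 5 and 0.0301, 0.0299 and 0.0460 at day 7. Every day 7 library was below every day 5 library of either line. The group means of these medians went from 0.0657 ± 0.00713 (SD, n = 2) to 0.0332 ± 0.0119 (SD, n = 3) in Halo-SMCHD1 and from 0.0677 ± 0.0131 (SD, n = 2) to 0.0353 ± 0.00921 (SD, n = 3) in G137E, so that 50.5% and 52.2% of the day 5 level remained. The mean difference over both lines was -0.0324 in a two-sided exact permutation test of the day labels within lines (p = 0.01, the smallest p that the 100 arrangements allow). Before induction the medians were 0.518 in Halo-SMCHD1 and 0.522 in G137E, and after 24 h with dox they were 0.237 and 0.277, with 1 library for each. By the study, the libraries before induction and after 24 h are from undifferentiated cells.

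**Figure D1:**
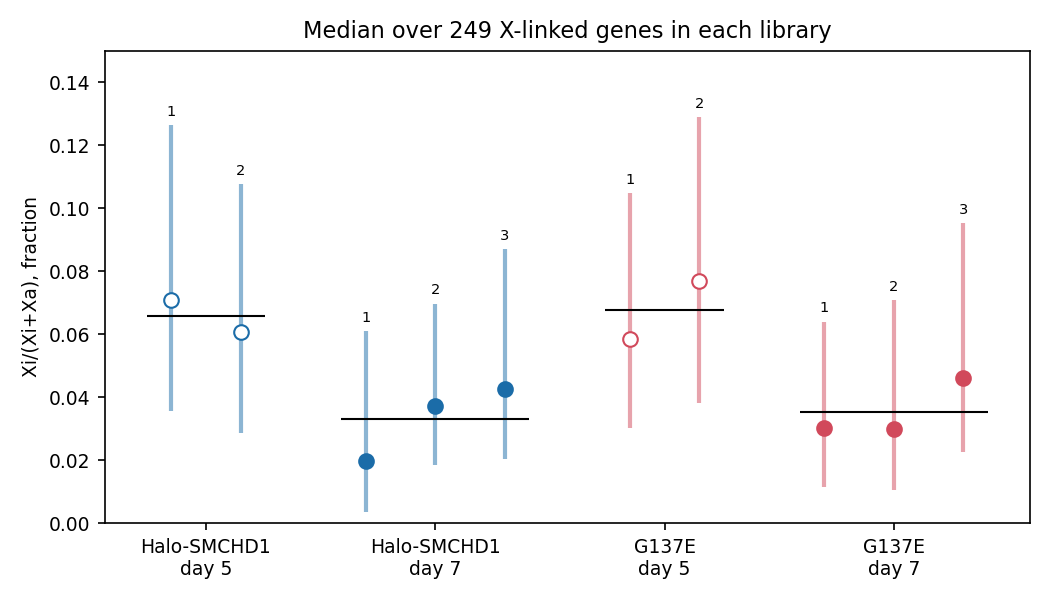
Median Xi/(Xi+Xa) (vertical axis, fraction) over 249 X-linked genes in each of the 10 libraries, by line and day. Circles are library medians (open, day 5; filled, day 7), coloured bars span the first to the third quartile over genes, digits are replicate numbers and black lines are group means; the day 7 medians, 0.0198 to 0.0460, lie below the day 5 medians, 0.0584 to 0.0769.

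The replicates of a day were not alike. Replicate 1 of Halo-SMCHD1 at day 7 had the lowest median and listed 61 genes at 0, against 22 and 19 in the other day 7 libraries of this line and 10 and 20 at day 5. G137E listed 20 and 15 genes at 0 at day 5 and 37, 45 and 26 at day 7. The tables give fractions without read counts, so the depth is unknown, no counting error can be given, and a gene listed at 0 may still have Xi output. Without replicate 1 of Halo-SMCHD1 at day 7, the count of lower genes given next was 61.

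Gene by gene, 83 of the 249 genes (33.3% of those tested) were lower at day 7 and 1 was higher (0.402%) by limma on log2 odds with a Benjamini-Hochberg adjusted p under 0.05. The log2 odds are log2((r + 0.01)/(1 - r + 0.01)) for a fraction r. The estimate was below 0 for 227 genes and above 0 for 22, with a median of -0.64 in log2 odds. The count depended on single libraries. Of those at day 5, it was 18 without replicate 1 and 52 without replicate 2 of Halo-SMCHD1, and 66 without replicate 1 and 24 without replicate 2 of G137E, and it was 61 to 93 without any 1 library of day 7. All 83 genes stayed below 0 when any 1 of the 10 libraries was left out, 81 kept an unadjusted p under 0.05 each time, and 17 kept the call each time. The named genes among the 17 are Fundc1, Utp14a, Mamld1, Tbc1d25, Atp6ap2, Tmem47, Bcorl1, Bcor, Maoa and Fundc2, and every other called gene named here lost its call in at least 1 of these fits.

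With each library set against its own median, no gene passed in the fit over both lines. The median log2 odds of a library shifted by -0.87 from day 5 to day 7. With each library centred on its own median, 0 genes passed the limma test after adjustment, 17 were lower and 40 higher at an unadjusted p under 0.05, and the smallest adjusted p was 0.0844. In Halo-SMCHD1 alone, 1 gene, Pdzd11, was called higher after centring. Centring adds 0.87 to every estimate over both lines, so that a smaller fall turns to a value above 0 by construction. Over all 249 genes the median estimate was then 0.22, with 161 genes above 0 and 88 below, and 0 after centring is therefore not the change of the median gene. Of the 83 genes, 52 then had an estimate below 0 and 31 above 0. The falls described here are falls in the level of the fraction.

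A count that needs no model gave a like picture. The day 7 libraries lay wholly below the day 5 libraries in 124 genes of Halo-SMCHD1 and in 115 genes of G137E, and wholly above in 3 and 2. In both lines at once they lay below in 83 genes (33.3%) and above in 1 gene (0.402%). The 83 genes of limma and the 83 without overlap share 73, which is 88.0% of each set. The mean fraction was lower at day 7 in both lines for 188 genes, higher in both for 8, and differed in direction between the lines for 45.

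**Figure D2:**
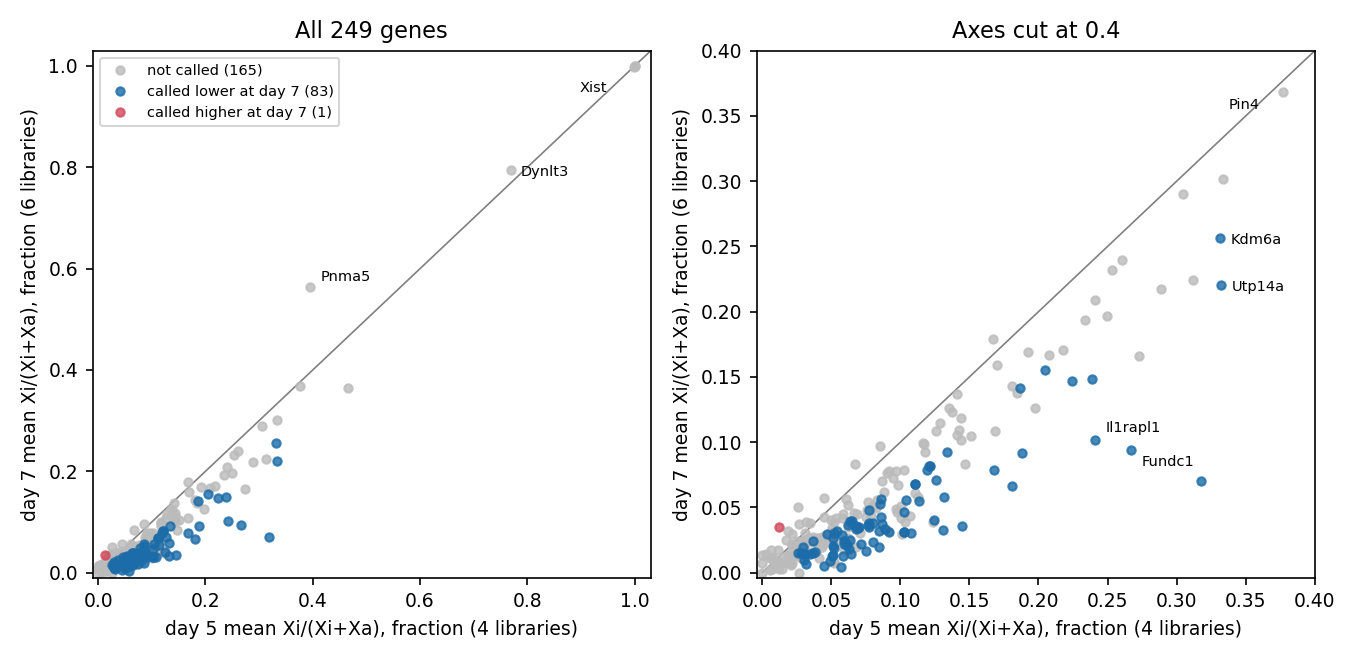
Mean Xi/(Xi+Xa) of each of 249 genes at day 5 (horizontal axis, fraction, 4 libraries) and day 7 (vertical axis, fraction, 6 libraries), with the line of equality; the right panel shows the same points up to 0.4. The 83 genes called lower (blue) lie below the line and the 1 called higher (red) lies near the origin.

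The number of genes with a readily measured fraction from Xi shrank. At day 5, 79 genes had a mean fraction over 0.1, of which 43 were still over 0.1 at day 7 and 36 were not, and 0 genes crossed in the other direction. Genes with a mean over 0.2 went from 27 to 16, and genes with a mean under 0.05 from 85 to 164. Over the 246 genes with a day 5 mean above 0, the median gene kept 61.5% of its day 5 level, with quartiles of 42.8% and 78.3%. The 83 genes called lower had a median of 0.0774 at day 5 and 0.0338 at day 7, and the 165 that were not called had medians of 0.0580 and 0.0351. The median standard error was 0.23 in log2 odds for the called genes and 0.38 for those not called.

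The largest falls, among called genes without overlap in either line, were in genes of varied function. Fundc1, which encodes a receptor for the removal of mitochondria, was at 0.277 and 0.261 in Halo-SMCHD1 at day 5 and at 0.0652, 0.0920 and 0.137 at day 7. In G137E it was at 0.208 and 0.321 at day 5 and at 0.129, 0.0792 and 0.0630 at day 7. Its lowest day 5 library was therefore above its highest day 7 library across the lines, and the estimate was -1.75 ± 0.29 in log2 odds (SE; limma adjusted p = 0.00824, n = 10). Utp14a, whose product processes the RNA of the small ribosomal subunit, was at 0.347 and 0.318 in Halo-SMCHD1 at day 5 and at 0.224, 0.205 and 0.224 at day 7. In G137E it was at 0.344 and 0.321, and then at 0.210, 0.198 and 0.262. Utp14a thus fell by a smaller factor than Fundc1 and had tighter replicates, with an estimate of -0.80 ± 0.14 (SE; limma adjusted p = 0.00957, n = 10), and 0.07 after centring, below the 0.22 of the median gene.

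Il1rapl1, which encodes a synaptic adhesion protein, did not start from equal output of both alleles. Il1rapl1 stood at 0.974 and 0.979 before induction and at 0.957 and 0.879 after 24 h with dox, in Halo-SMCHD1 and G137E. Few of its reads were thus given to the other allele even before induction, for a reason that was not tested. Its fall is therefore not one from a balanced start. At day 5 it was at 0.213 and 0.25 in Halo-SMCHD1 and at 0.231 and 0.271 in G137E, and at day 7 at 0.0667, 0.114 and 0.203 and at 0.0349, 0.0400 and 0.149. The days did not overlap within either line, but day 7 replicate 3 of each line was well above the other replicates. The limma adjusted p was 0.0339 (estimate -1.64 ± 0.49, SE, n = 10). The call is fragile, since it held in only 2 of the 10 fits that left out a library.

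Of the other genes with the largest falls, Mamld1, a mastermind-like nuclear protein, fell from 0.174 and 0.110 to 0.0189, 0.0543 and 0.0618 in Halo-SMCHD1 and from 0.0923 and 0.149 to 0.0156, 0.0217 and 0.0220 in G137E. Its estimate was -1.98 ± 0.32 in log2 odds (SE; limma adjusted p = 0.00824, n = 10), and -1.11 after centring. Unlike Il1rapl1, Mamld1 stood at 0.0290 and 0.0649 after 24 h with dox, in Halo-SMCHD1 and G137E. These values lie below the day 5 values of their line. They come from undifferentiated cells with 1 library per line, so time with dox and cell state cannot be told apart. Bcorl1, a transcriptional corepressor related to BCOR, fell from 0.155 and 0.105 to 0.0435, 0.0556 and 0.0402 in Halo-SMCHD1 and from 0.0952 and 0.141 to 0.0278, 0.0250 and 0.0488 in G137E. Tmem47, a membrane protein of cell junctions, was at 0.0525 to 0.100 at day 7 after 0.142 to 0.188 at day 5. The remaining genes of this group are Wdr13, a WD repeat protein, Taz, the cardiolipin-remodelling tafazzin, Tbc1d25, a regulator of Rab GTPases, and Atp6ap2, an accessory subunit of the proton pump of vesicles. Their mean falls in fraction were 0.114, 0.109, 0.0962 and 0.0902, and for Wdr13 and Taz the call was lost without replicate 1 of Halo-SMCHD1 at day 5 (limma adjusted p = 0.0701 for both). Timp1, an inhibitor of metalloproteinases, was singled out after its values were seen, since it had the largest mean fall of any called gene, 0.247, but its Halo-SMCHD1 libraries overlapped: 0.176 and 0.357 at day 5 against 0, 0.0769 and 0.231 at day 7.

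**Figure D3:**
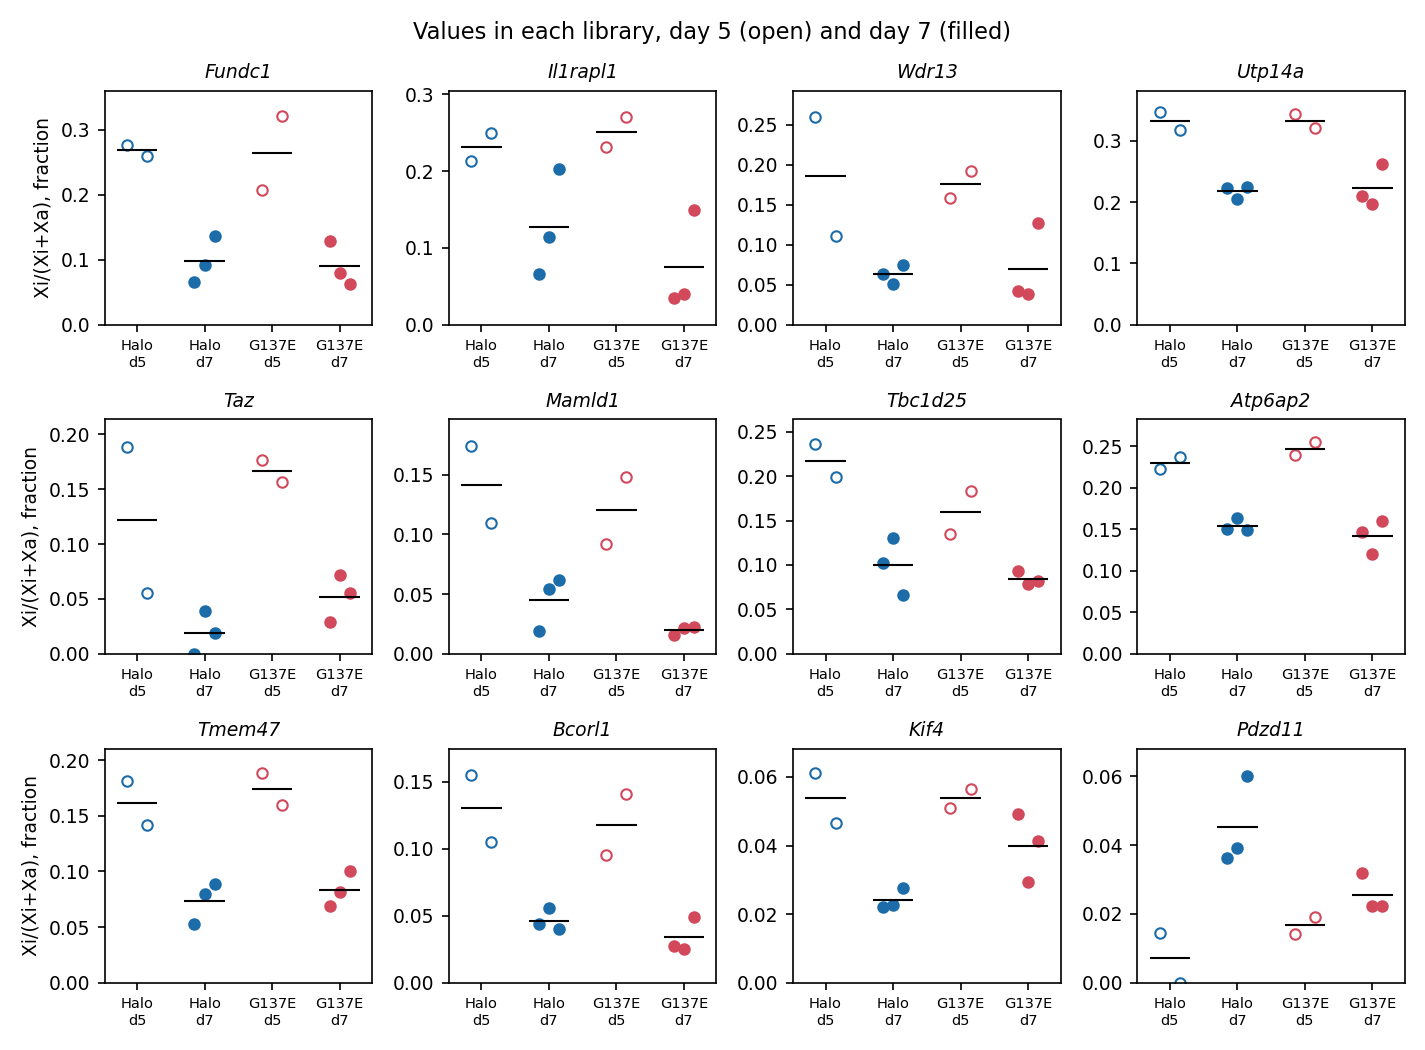
Xi/(Xi+Xa) (vertical axes, fraction, each scaled from 0) in each of the 10 libraries for the 10 genes with the largest falls and for the neighbours Kif4 and Pdzd11. Circles are libraries (open, day 5; filled, day 7; blue, Halo-SMCHD1; red, G137E) and black lines are group means; Pdzd11 is the gene whose day 7 libraries lie above the day 5 libraries in both lines.

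Pdzd11, which encodes a small PDZ protein, was the single gene called higher. It was at 0.0145 and 0 in Halo-SMCHD1 at day 5 and at 0.0364, 0.0392 and 0.0600 at day 7, and in G137E at 0.0143 and 0.0192 and then at 0.0317, 0.0222 and 0.0222. All 6 day 7 libraries were above the day 5 libraries of their line (estimate 1.13 ± 0.36 in log2 odds, SE; limma adjusted p = 0.0429, n = 10), and relative to the library medians it had the largest rise of the named genes, 2.00 (limma adjusted p = 0.0844). The call is fragile: it held in 2 of the 10 fits that left out a library, with adjusted p between 0.0404 and 0.086, and was lost with a pseudocount of 0.001. All 10 values of Pdzd11 stayed at or under 0.0600, against 0.426 and 0.452 before induction.

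Pdzd11 starts 124 bases from Kif4, on the opposite strand, and Kif4 was called lower. Kif4, a kinesin of mitotic chromosomes, was at 0.0613 and 0.0465 in Halo-SMCHD1 at day 5 and at 0.0220, 0.0226 and 0.0276 at day 7, and in G137E at 0.0510 and 0.0565 and then at 0.0492, 0.0294 and 0.0412. The estimate was -0.67 ± 0.18 in log2 odds (SE; limma adjusted p = 0.0267, n = 10), 0.0881 without replicate 1 of Halo-SMCHD1 at day 5, and the estimate after centring was 0.20, beside 0.22 for the median gene. The stretch that holds both start sites is shown because the genes that leave it moved in opposite directions. It is the RefSeq promoter window of Kif4 on the plus strand of GRCm38.p6, chrX:100625815-100626114, with 250 bases before and 50 from the start onwards. Capitals mark the bases from the start of Pdzd11, at 100625941, to that of Kif4, at 100626065, and the window holds 28 CG dinucleotides.
Kif4 and Pdzd11: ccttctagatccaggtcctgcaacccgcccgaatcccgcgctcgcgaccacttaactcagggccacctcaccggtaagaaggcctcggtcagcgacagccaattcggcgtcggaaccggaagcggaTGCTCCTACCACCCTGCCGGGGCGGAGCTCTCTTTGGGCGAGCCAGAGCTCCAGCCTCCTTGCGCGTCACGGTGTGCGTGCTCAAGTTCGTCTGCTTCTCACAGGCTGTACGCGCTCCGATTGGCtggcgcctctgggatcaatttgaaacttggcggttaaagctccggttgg

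Some genes known to escape X inactivation also had a lower fraction at day 7. Of 16 escape genes listed, 7 were measured, Xist among them, and 4 of the 7 were called lower, beside 33.3% of all genes, with a median fraction of 0.253 at day 5 and 0.220 at day 7. Kdm6a, a demethylase of histone H3 lysine 27, was at 0.338 and 0.336 in Halo-SMCHD1 at day 5 and at 0.232, 0.257 and 0.270 at day 7, and in G137E at 0.324 and 0.326 and then at 0.265, 0.245 and 0.271. The replicates were close and the days did not overlap (estimate -0.51 ± 0.12, SE; limma adjusted p = 0.0183, n = 10, and 0.0629 without replicate 1 of Halo-SMCHD1 at day 5). Ddx3x, an RNA helicase, had means of 0.205 and 0.156 (limma adjusted p = 0.0477), and Shroom4, an actin-binding protein, 0.0682 and 0.0336 (limma adjusted p = 0.0140). Of the 10 fits that left out a library, Ddx3x kept its call in 1 and Shroom4 in 8. Eif2s3x, a translation initiation factor, and the long non-coding RNA gene Firre had means of 0.253 and 0.232, and of 0.170 and 0.159, and did not pass. The median estimate of the 7 genes was -0.47, against -0.64 over all genes. After centring it was 0.39, with 6 of the 7 above 0, Xist included, beside 0.22 and 161 of 249 over all genes.

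Xist itself, which dox drives from the 129S allele, was at 0.998 to 0.999 in all 10 libraries. Only 3 of the 12 genes listed for the X-inactivation centre were measured, and 0 of them were called. Chic1 had means of 0.0499 and 0.0407 at day 5 and day 7. Tsix, which lies over Xist on the opposite strand, was the most scattered: 0.469 and 0.0589 in Halo-SMCHD1 at day 5, 0.186, 0.647 and 0.111 at day 7, and 0.615 and 0.105, then 0.212, 0.0821 and 0.106 in G137E. Its standard error of 1.11 in log2 odds was the largest of the table, and the days overlapped in both lines. The counting used the strand, but whether reads of Xist reached the Tsix value was not tested.

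A few genes kept a high fraction. Ube2a, a ubiquitin-conjugating enzyme, was at 1 in all 10 libraries, and C330007P06Rik at 0.996 to 1, but both stood at 0.999 or 1 before induction too, so these values do not follow silencing. Dynlt3, a light chain of dynein, was at 0.735 to 0.812 at day 5 and 0.706 to 0.887 at day 7, after 0.869 and 0.879 before induction. Pnma5, of a gene family derived from a retrotransposon, had the largest positive difference in mean fraction, 0.169. It was at 0.429 and 0.364 in Halo-SMCHD1 at day 5 and at 0.667, 0.333 and 0.571 at day 7, and in G137E at 0.520 and 0.267 and then at 0.75, 0.625 and 0.435. The libraries overlapped in both lines and the difference did not pass the test (limma adjusted p = 0.157). The means of Gm14827 differed by 0.0249, with 4 of its 10 values listed at 0. Pin4, a prolyl isomerase, and 4930519F16Rik had nearly the same level on both days, with means of 0.377 and 0.368, and of 0.148 and 0.137.

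Among chromatin regulators, 8 of 18 measured genes were called lower and 0 higher, beside 33.3% of all genes called lower. The median fraction of the list was 0.0819 at day 5 and 0.0429 at day 7. Bcor, a corepressor of the Polycomb group, was at 0.105 and 0.124 in Halo-SMCHD1 at day 5 and at 0.0253, 0.0420 and 0.0526 at day 7, and in G137E at 0.0732 and 0.108 and then at 0.0199, 0.00606 and 0.0402. These values did not overlap (estimate -1.68 ± 0.34, SE; limma adjusted p = 0.0126, n = 10). Jade3, a subunit of a histone acetyltransferase complex, had a smaller fall, from a mean of 0.0638 to 0.0393, and its estimate after centring, 0.24, was close to the 0.22 of the median gene. Bcorl1 and Kdm6a, described above, are also in this list. The median estimate of the list was -0.56, and 0.31 after centring, with 13 of 18 above 0, beside 0.22 and 161 of 249 over all genes.

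In the groups of cell structure and metabolism, the called genes were again all lower in level, and their counts stand beside the 33.3% of all genes. For the cytoskeleton and mitosis it was 6 of 14, led by Msn, the membrane-actin linker moesin, at 0.0881 and 0.0554 in Halo-SMCHD1 at day 5 and 0.00221, 0.0255 and 0.0217 at day 7, and at 0.0548 and 0.101, then 0.00798, 0.0161 and 0.0242 in G137E. Its lowest day 5 value lay above its highest day 7 value, and the estimate was -1.83 ± 0.36 (SE; limma adjusted p = 0.0122, n = 10, and 0.0511 without replicate 1 of Halo-SMCHD1 at day 5). Vbp1, a subunit of the chaperone prefoldin, and the kinase Cdk16 had means of 0.134 and 0.0922, and of 0.131 and 0.0579, and were called lower. In the list of metabolic enzymes, 10 of 21 members were called. Among them were Maoa, which degrades monoamines and fell from a mean of 0.0629 to 0.0184, Ids, a lysosomal sulfatase, and the lipid phosphatase Mtm1. The list also holds Slc6a8, the creatine transporter and thus not an enzyme, which fell from 0.102 to 0.0312. Of 10 genes of mitochondrial proteins, 5 were called, and Fundc2, a relative of Fundc1, reached 0.00395 at day 7 from 0.0572, with 4 of its 6 day 7 libraries listed at 0. Mtcp1 and the carrier Slc25a14 also fell, from 0.0624 to 0.0366 and from 0.0513 to 0.0266. The median estimates of these 3 lists were -0.66, -0.89 and -0.83, and after centring 0.21, -0.03 and 0.03. The first of these is close to the 0.22 over all genes and the other two are below it, a difference that was not tested.

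RNA processing and translation had 5 genes called lower among 22, which makes 22.7% beside the 33.3% of all genes. They include Fmr1, an RNA-binding protein at synapses, from a mean of 0.126 to 0.0712, the ribosomal protein gene Rps4x, from 0.0703 to 0.0352, and Rbm3, an RNA-binding protein induced by cold, from 0.111 to 0.0678. This list started high, at a median of 0.119, and all 22 members had a lower mean at day 7, beside 223 of 249 over all genes. Of 9 genes of the ubiquitin pathway, 2 were called lower, the deubiquitinases Usp11, from 0.0470 to 0.0299, and Usp9x, from 0.0774 to 0.0482. Otud5, a further deubiquitinase, and Klhl13, an adaptor of a ubiquitin ligase, had means of 0.141 and 0.105, and of 0.0459 and 0.0285, without passing. Of 13 dosage-sensitive genes of signalling and pluripotency, 3 were called lower. Araf, a kinase of the MAPK pathway, went from 0.122 to 0.0820, and Fgf13 from 0.0370 to 0.0241. Gpc4, a glypican, had means of 0.0252 and 0.0133 and did not pass. The median estimates of the 3 lists were -0.57, -0.55 and -0.59, and after centring 0.29, 0.31 and 0.27, with 17 of 22, 9 of 9 and 12 of 13 genes above 0, beside 0.22 and 161 of 249 over all genes.

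The level after 24 h with dox is from undifferentiated cells, in libraries of neither day. It ordered the genes at day 7 and their change in fraction, but hardly their change in log2 odds. The 83 genes with the lowest mean level at 24 h had a median of 0.0343 at day 5 and 0.0173 at day 7, the next 83 had 0.0638 and 0.0316, and the 83 with the highest had 0.134 and 0.0820. The median estimates were -0.60, -0.67 and -0.68, and 23, 28 and 32 genes were called lower, while the median differences in fraction were -0.0132, -0.0241 and -0.0402. Across the 249 genes, Spearman's rho between the 24 h level and the day 7 mean was 0.67, between the 24 h level and the difference in fraction -0.43, and between the 24 h level and the estimate -0.09. Genes are not independent, and these points share a line, so the correlations are descriptions.

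Along the chromosome, genes called lower were found in every segment of 20 Mb that the table covers, from 6047506 to 103484957 on X (mm10). The share called lower was 40% of 50 genes before 20 Mb, 30.3% of 33, 29.5% of 44, 39.1% of 64 and 30.3% of 33 in the next segments, and 20.0% of the 25 genes beyond 100 Mb, where Xist lies. The median estimates in that order were -0.81, -0.62, -0.60, -0.74, -0.41 and -0.45. The segments beyond 80 Mb thus had the median estimates nearest 0, a difference that was not tested. By length as the table gives it, 18 of the 83 shortest genes were called, 26 of the next and 39 of the longest, while the median estimates were -0.67, -0.56 and -0.66. A longer gene can cover more SNPs, but read counts per gene are unknown and the part of depth in these shares was not tested. By gene type in GENCODE vM21, 81 of the 83 called genes are protein coding, as are 227 of the 249.

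No gene was shown to differ in level between the lines. In the fit with line and day, 0 genes differed between G137E and Halo-SMCHD1 by limma after adjustment, 3 were lower and 6 higher in G137E at an unadjusted p under 0.05, and the smallest adjusted p was 0.741. The median estimate was 0.06 in log2 odds with a median standard error of 0.32, so differences of that order in a single gene could not be shown. Within a line, the number of calls depended on the scale of the values: on log2 odds with the pseudocount of 0.01, 2 genes were lower in Halo-SMCHD1 (0.803%) and 0 genes passed in G137E (0%), although 71 and 66 were lower at an unadjusted p under 0.05 and the median estimates, -0.68 and -0.64, were close. With a pseudocount of 0.05 the calls were 25 in Halo-SMCHD1 and 7 in G137E, and with untransformed fractions 33 and 18, all lower but Pdzd11, which was called higher in Halo-SMCHD1 each time. The count for G137E was 18 without its day 7 replicate 3, and that for Halo-SMCHD1, in either direction, was between 1 and 4 when any 1 library was left out. The 2 genes of Halo-SMCHD1 are Spin4 and Chst7, a sulfotransferase at 0.0669 and 0.0607 at day 5 and at 0, 0.00826 and 0.0119 at day 7. Per gene, the day effects of the lines, which rest on separate libraries, had a Spearman's rho of 0.40 over 249 genes, and the day 5 means one of 0.91.

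**Figure D4:**
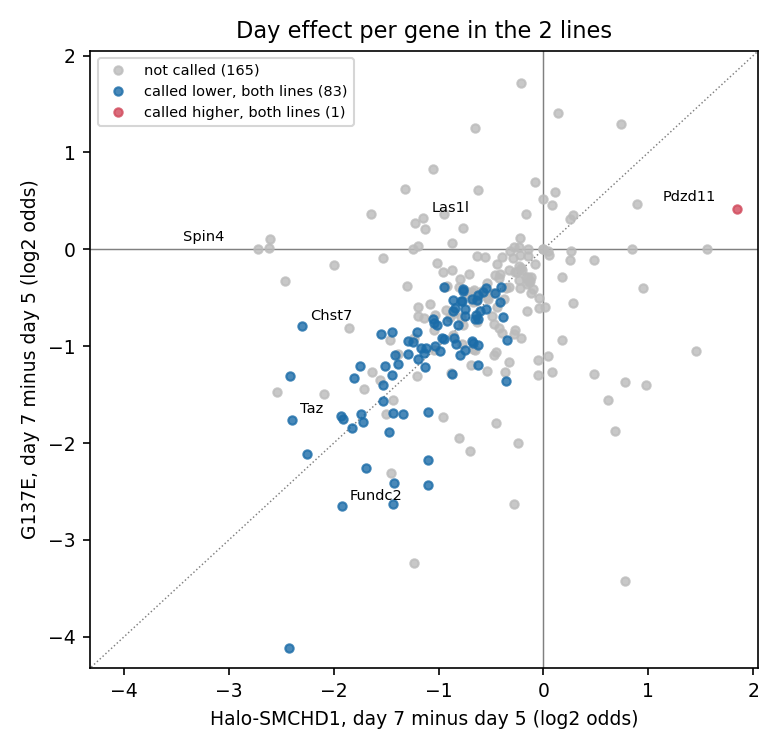
Day 7 minus day 5 in log2 odds for each of 249 genes in Halo-SMCHD1 (horizontal axis) and G137E (vertical axis), with the dotted line of equality. Blue points are the 83 genes called lower over both lines, the red point is Pdzd11 and grey points were not called; most points lie below 0 on both axes.

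The test of the difference between the day effects called 1 gene (0.402%), and 3 genes were lower and 3 higher at an unadjusted p under 0.05. The called gene was Spin4, of the spindlin family of histone readers. It was at 0.0556 and 0.05 in the Halo-SMCHD1 libraries at day 5 and listed at 0 in the 8 other libraries (limma adjusted p = 0.000744 for the difference, n = 10). With most values at 0 its spread is close to 0 by construction, and the call was lost when genes with a mean under 0.02 were left out, which leaves out Spin4, and after centring. The median standard error of the difference was 0.65 in log2 odds, about the size of the median day effect, so a difference of that size in a single gene could not be shown.

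K518E (clone A4), a line made from Halo-SMCHD1 with another substitution in SMCHD1 and 2 libraries at each day, had lower fractions than both lines at day 5 and a smaller change. In a table of 242 genes that holds all 3 lines, its library medians were 0.0371 and 0.0432 at day 5 and 0.0284 and 0.0325 at day 7, whereas those of the other lines were 0.0565 to 0.0758 and 0.02 to 0.0442. Day 7 medians of K518E therefore lay within the range of the other lines, and the day 5 medians did not. K518E listed 9 and 9 genes at 0 at day 5 and 20 and 10 at day 7. The other lines listed 10 to 19 and 19 to 57, and depth is unknown. K518E is 1 clone and, by the reviews published with the study, was added at revision. Genotype, clone and any difference in time of preparation cannot be told apart. The mean of the medians changed by -0.00972 in K518E, by -0.0320 in Halo-SMCHD1 and by -0.0314 in G137E. The median day effect was -0.22 in K518E and -0.64 in both lines, and the difference was above 0 for 199 of the 242 genes, but its median was -0.07 after centring. For a single gene, 1 difference passed limma (0.413%), with 3 lower and 18 higher in K518E at an unadjusted p under 0.05. It was Rab39b, a small GTPase, at 0.0408 and 0.0208 in K518E at day 5, and listed at 0 in its day 7 libraries and in all 10 libraries of Halo-SMCHD1 and G137E (limma adjusted p = 0.00679, n = 14). With most values at 0 its spread is close to 0, and 0 genes were called without either of the day 7 libraries of K518E. Of the genes with the largest falls, Fundc1 was at 0.202 and 0.148 in K518E at day 5 and at 0.130 and 0.110 at day 7, and Atp6ap2 at 0.178 and 0.185 and then at 0.202 and 0.170.

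**Figure D5:**
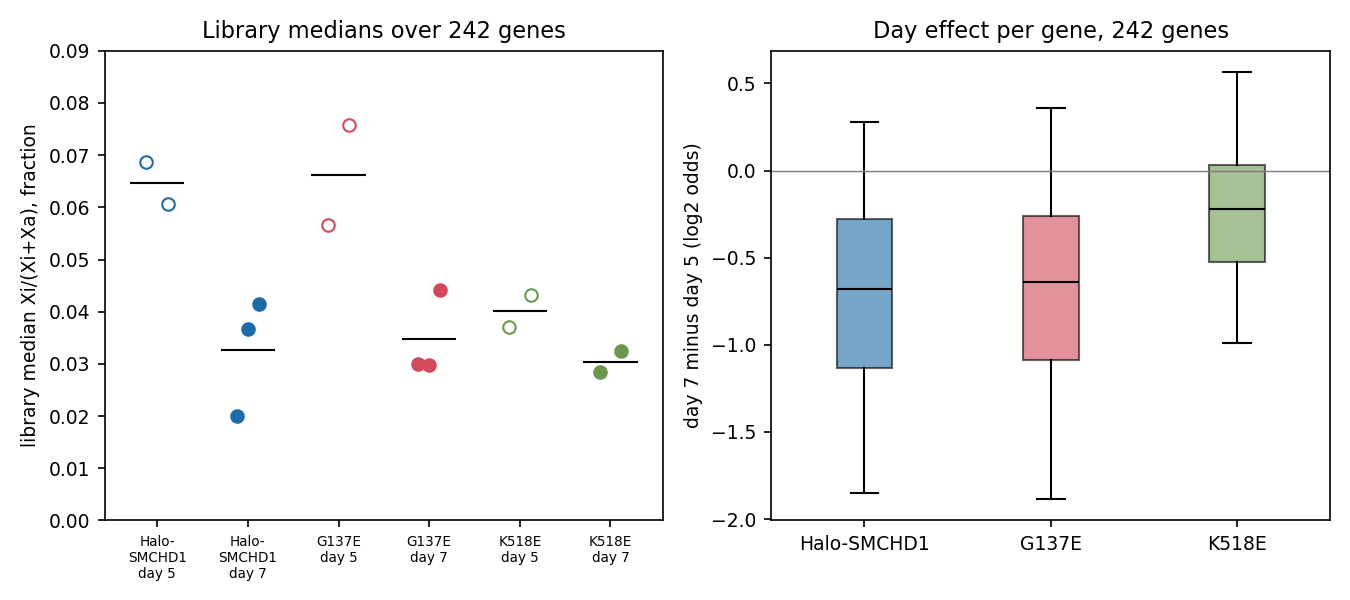
Left, library medians of Xi/(Xi+Xa) (vertical axis, fraction) over 242 genes in Halo-SMCHD1, G137E and K518E at day 5 (open circles) and day 7 (filled), with group means as black lines. Right, day 7 minus day 5 in log2 odds per gene (boxes, quartiles and median; whiskers, 5th to 95th percentile), with medians of -0.68, -0.64 and -0.22 from left to right.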

How the data were processed

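ChrRNA-seq libraries of Halo-SMCHD1 and G137E at day 5 and day 7 were compared. The authors removed rRNA reads with bowtie2 2.3.2, aligned to N-masked mm10 with STAR 2.4.2a or 2.7.9a, kept unique alignments (samtools 1.16.1), split them by allele with SNPsplit 0.4.0dev and counted them by strand over transcripts with featureCounts. They kept genes with 10 or more reads covering a SNP across the samples compared, a filter stated for genes and not for each library. For these they deposited the fraction Xi/(Xi+Xa) per library, without normalization between libraries or pooling. Read counts are not used here and depth is unknown.

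Fractions were turned into log2 odds (pseudocount 0.01) and fitted with limma 3.58.1 in R 4.3.3 over 10 libraries, with line and day as terms. Contrasts within and between lines used a fit with 1 mean per line and day, and those with K518E a fit over 14 libraries. Adjustment was by Benjamini-Hochberg, with a threshold of 0.05. Library medians were compared with exact permutation tests. The fits were tested on simulated data. Python 3.11.15 with pandas 2.3.3, scipy 1.17.1 and matplotlib 3.10.9 did the rest, and 2 columns without a matched sample were not used.

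The genes named are Xist, the 10 largest falls among genes called lower without overlap within a line, every gene called higher, the 3 largest rises, the 5 highest at day 7, the 5 smallest changes above 0.1, up to 5 genes called between lines or in K518E, and up to 4 genes with the smallest p of each list. Eif2s3x, Firre, Timp1, Chst7 and Las1l were named after their values were seen. The libraries, lists and tests were chosen with earlier results of these data known. The lists were written from background knowledge, and some members sit loosely in them. These include Haus7, Dkc1, Slc6a8, Ppp1r3f and Ssr4 among metabolic enzymes, and Nsdhl in the cytoskeleton list. Alternatives tried were other pseudocounts, untransformed fractions, filters on level, all differentiated libraries, eBayes with robust and trend, centring, the replicate block, the K518E table and leaving out each library.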

Additional observations from a re-analysis of the deposited data

Results flagged for a closer look

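Spin4 differed between the lines in its day effect (limma adjusted p = 0.000744). It was at 0.0556 and 0.05 in Halo-SMCHD1 at day 5 and listed at 0 in the 8 other libraries. Rab39b differed between K518E and both lines (limma adjusted p = 0.00679), on values of 0.0408 and 0.0208 in K518E at day 5 and 0 in the 12 other libraries. Las1l, a gene of ribosome formation named after its values were seen, moved in opposite directions without overlap. It went from 0.0409 and 0.0676 to 0.0181, 0.0172 and 0.0233 in Halo-SMCHD1 and from 0.0188 and 0.0240 to 0.0254, 0.0260 and 0.0359 in G137E. The G137E day effect was 1.47 above that of Halo-SMCHD1 in log2 odds, which did not pass limma (adjusted p = 0.537).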

How the results depend on the processing

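The direction of the library medians held in every alternative. Without a replicate block the difference was -0.0324, and with day 5 and day 7 replicates paired by number within a line (replicate block) it was -0.0374 with an exact permutation p of 0.125, the smallest that 4 pairs allow. Leaving out each library gave -0.0371 to -0.0278. The deviations of same-numbered libraries from their group means had correlations of -0.20 to 0.05 across genes. These cannot show whether the numbers pair the samples. With 2 day 5 libraries per line, the deviations at day 5 mirror each other, and a shift shared by all genes does not enter the correlation. With the replicate block, limma called 103 genes lower over both lines, 2 in G137E and 2 for K518E against both lines.

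The 83 genes lower over both lines became 54 with a pseudocount of 0.001 and 0 with libraries centred on their medians. Leaving out each library gave 18 to 93. For Halo-SMCHD1 the 2 calls, counted in either direction, became 1 with a pseudocount of 0.001, 25 with 0.05, 33 with untransformed fractions, 0 for genes with a mean of at least 0.02, 8 with all differentiated libraries, 1 with robust and trend, and 1 after centring, and 1 to 4 without a library. The 1 after centring was Pdzd11, called higher, and the 25, 33 and 8 each include Pdzd11 as the 1 gene called higher. For G137E the 0 calls became 7 with a pseudocount of 0.05 and 18 with untransformed fractions, and 0 to 18 without a library. The 1 call between the lines became 0 for genes with a mean of at least 0.02 and 0 after centring, and 1 to 2 without a library. The 0 calls for the line became 0 to 1 without a library. The 1 call for K518E became 0 with a pseudocount of 0.05 and 0 with untransformed fractions, and 0 to 2 without a library. The cause of these changes was not tested, apart from the smaller numbers of genes or libraries that a filter or a left-out library leaves.

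Centring adds 0.87 to every estimate over both lines, so that any smaller fall turns sign by construction and the turn says nothing particular to a gene (all-gene median 0.22, 161 of 249 above 0). These estimates in log2 odds turned from below to above 0: Utp14a 0.0686, Atp6ap2 0.0502, C330007P06Rik 0.79, 4930519F16Rik 0.65, Pin4 0.81, Fmr1 0.0338, Rbm3 0.17, Chic1 0.58, Tsix 0.40, Jade3 0.24, Kdm6a 0.36, Vbp1 0.29, Kif4 0.20, Araf 0.27, Fgf13 0.38, Gpc4 0.27, Ddx3x 0.39, Mtcp1 0.18, Slc25a14 0.0584, Usp11 0.31, Usp9x 0.21, Otud5 0.40 and Klhl13 0.26. Without a library, 5 uncalled genes changed direction: Xist (-0.0126 to 0.0373), Gm14827 (-0.0545 to 1.41), 4930519F16Rik (-0.41 to 0.17), Pin4 (-0.18 to 0.18) and Tsix (-1.41 to 0.48). The fractions come without counts, so what depth limits could not be set.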
